A study of Ovis aries with 10 samples.

Results

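Transcripts of glycolysis and of the response to low oxygen were followed in fetal sheep adrenal glands after exposure to endotoxin. The rule for choosing genes was a list of 36 symbols, looked up in the authors' deposited table of differential expression. Of these, 33 were found among its 19316 rows, and each had 1 row, so no choice between rows was needed. ALDOA, PGAM1 and LDHB, an aldolase, a phosphoglycerate mutase and a lactate dehydrogenase subunit, were not found under these symbols and are not analysed here. The 33 members comprised 21 genes of glucose uptake, glycolysis and lactate handling, called glycolytic members below, and 12 other genes of the hypoxia response, called non-glycolytic members.

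Messenger RNA of whole adrenal glands was sequenced in 10 libraries. All came from fetal sheep of 102 days gestational age. The endotoxin group held 5 libraries from fetuses whose label says that endotoxin was injected, 3 female and 2 male, and the control group held 5 libraries with saline in its place, also 3 female and 2 male. Endotoxin is lipopolysaccharide of Gram-negative bacteria, a strong trigger of inflammation. The labels used here give neither the dose, the site of injection nor the time between injection and sampling, and do not say whether each library came from a separate pregnancy, so p-values measure the spread between these libraries. The libraries held between 12494386 and 18324516 estimated counts.

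Glycolysis converts glucose to pyruvate in the cytosol and yields ATP without oxygen, and lactate dehydrogenase then turns pyruvate into lactate, which leaves the cell through monocarboxylate transporters. When oxygen is scarce, prolyl hydroxylases of the EGLN family no longer mark HIF alpha subunits for breakdown, and the stabilised HIF factors raise transcription of many glycolytic genes together with genes for vessel growth, pH control and mitochondrial turnover. HIF-1 activity is also known to rise in activated myeloid cells independently of oxygen. In the adrenal gland the cortex makes steroids in mitochondria and the medulla makes catecholamines, and the HIF-2 subunit EPAS1 is known from chromaffin cells and endothelium.

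Genes with symbols appear only in the authors' deposited table, which gives a mean per group and no value per library. The tables with a value for each library carry gene IDs of another form without symbols, so levels are given as group means, in TPM, a read abundance corrected for library total and for transcript length. Errors are the standard errors (SE) of the authors' model. The log2 fold changes are the authors' score times its SE and run endotoxin over control. A gene is said to have risen or fallen where the authors' adjusted p was under 0.05, and intervals are 95% intervals from the SE. The authors' deposited table names its groups A and B. B was read as endotoxin, and rows at least 8-fold higher in B numbered 19 there and rows at least 8-fold lower 3, beside 16 higher and 3 lower with endotoxin in the TPM table whose columns carry the group labels. If the letters were the other way round, every sign below would turn.

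Of the 33 members 1, ENO1, passed the threshold in the authors' deposited table. It was higher with endotoxin, none passed as lower, and 32 did not pass. Over all 19236 rows with a p in the authors' deposited table, 1.72% passed, 1.29% as higher and 0.426% as lower with endotoxin. Glycolytic members were mostly positive on the log2 scale, 18 of 21 in the authors' deposited table against 50.9% of all rows, and their median was 0.30. The 12 non-glycolytic members were evenly divided in the authors' deposited table, 6 positive and 6 negative, with a median of 0.033. The median over all rows averaging 1 TPM or more was 0.011. The ratio of the group means in TPM sits 0.11 lower on the log2 scale for the median of those rows, so a member with a fold change near 0 can show a lower mean TPM with endotoxin. On that scale 14 of 21 glycolytic and 4 of 12 non-glycolytic members were positive in the authors' deposited table, with medians of 0.18 and -0.088, against 36.1% of all rows. At an unadjusted p under 0.05 there were 8 higher members and 1 lower member in the authors' deposited table, beside 7.58% of all rows higher and 5.35% lower. The higher ones were ENO1, PFKL, LDHA, TPI1, SLC2A1, GAPDH and PFKP among glycolytic members and VEGFA among the others, and the lower one was SLC16A1. The members were chosen with earlier results of these data known, so these shares describe them and were not tested as a set.

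The spread between libraries set how small a change could pass. The weakest row past the threshold in the authors' deposited table had a score of 3.33 SE. At that score a member needed a log2 fold change between 0.36 (PKM) and 1.71 (CA9) to pass, with a median of 0.68. For 27 of the 33 members the interval in the authors' deposited table lay within a 2-fold change in either direction. The 6 whose interval reached 2-fold were HK2, PFKP, LDHA, VEGFA, CA9 and ANKRD37. Missing the threshold thus does not show that a member was equal in both groups.

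**Figure D1:**
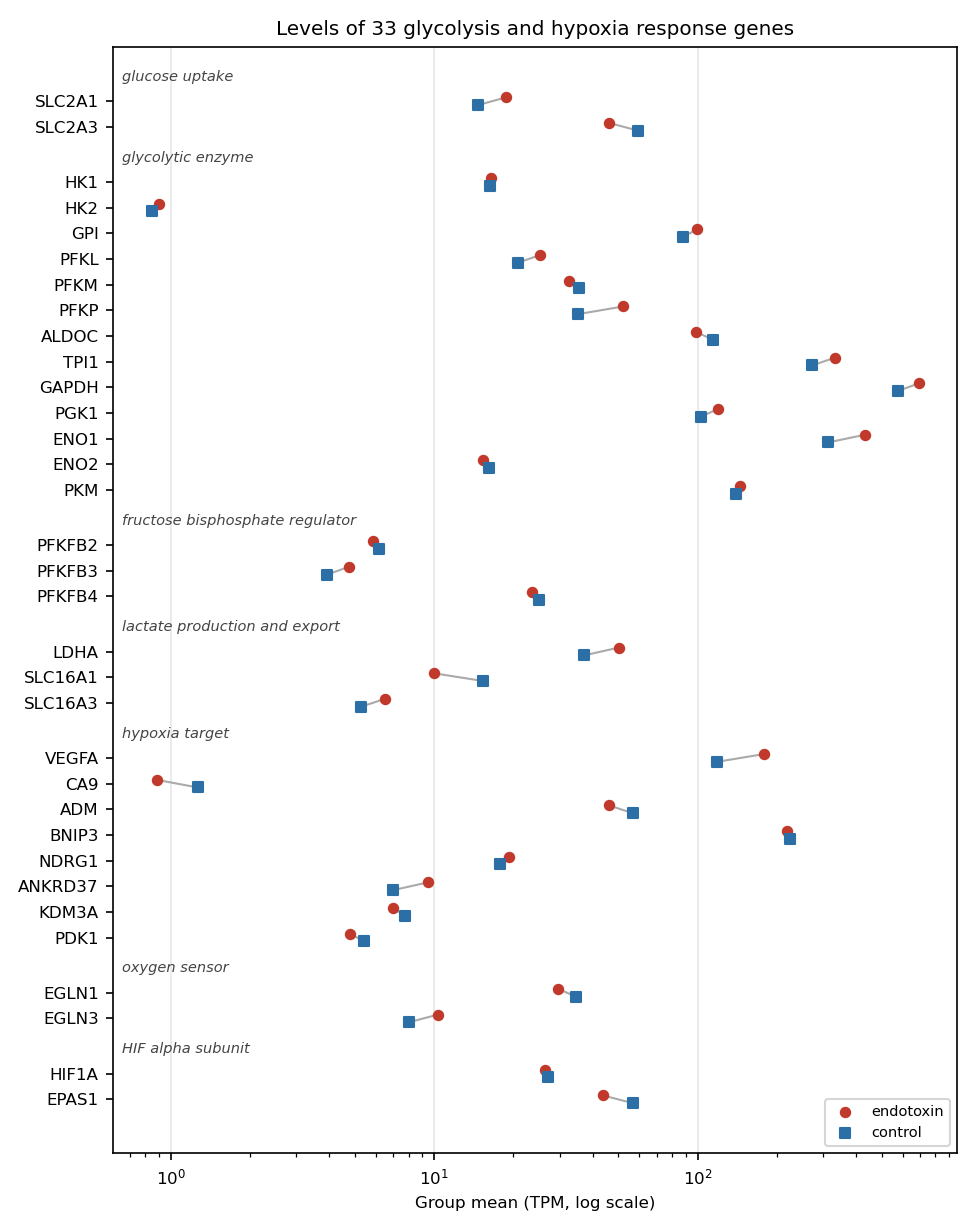
Group mean of each member in TPM on a log scale, endotoxin as circles and control as squares, from the authors' deposited table, arranged by role. Levels ran from GAPDH, at 690 TPM with endotoxin and 575 TPM in controls, to HK2, at 0.906 TPM with endotoxin and 0.846 TPM in controls, and most pairs of symbols lie close together.

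Glucose enters cells through facilitative transporters, of which SLC2A1 (GLUT1) serves most tissues and the fetal red cell, and SLC2A3 (GLUT3) has a higher affinity and is known from neurons and placenta. SLC2A1 averaged 18.8 TPM in endotoxin glands and 14.7 TPM in control glands in the authors' deposited table. Its log2 fold change was 0.49 ± 0.20 (SE; interval 0.088 to 0.88; adjusted p = 0.239), so the interval lay above 0 while the p after adjustment missed the threshold. SLC2A3 averaged 46.1 TPM in endotoxin glands and 59.5 TPM in control glands in the authors' deposited table, a log2 fold change of -0.22 ± 0.33 (SE; adjusted p = 0.901). SLC2A3 was the more abundant transporter in both groups. It held 71.1% of the summed TPM of this pair in endotoxin glands and 80.2% in control glands in the authors' deposited table. Whether the members of this pair differed in their response was not tested, because that needs values per library.

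Hexokinases trap glucose as glucose 6-phosphate, and GPI turns that into fructose 6-phosphate. HK1, the hexokinase of most tissues, averaged 16.5 TPM in endotoxin glands and 16.3 TPM in control glands in the authors' deposited table, a log2 fold change of 0.14 ± 0.18 (SE). HK2, a HIF target known from muscle and tumours, was the least abundant member, at 0.906 TPM in endotoxin glands and 0.846 TPM in control glands in the authors' deposited table. HK2 had a log2 fold change of 0.24 with an interval from -0.58 to 1.06, so little can be said of its change at this level. GPI averaged 99.4 TPM with endotoxin and 87.9 TPM in controls in the authors' deposited table, at 0.30 ± 0.16 (SE; adjusted p = 0.408).

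Phosphofructokinase commits sugar to glycolysis and occurs as muscle (PFKM), liver (PFKL) and platelet (PFKP) forms. PFKP averaged 52.3 TPM in endotoxin glands and 35.3 TPM in control glands in the authors' deposited table. Its log2 fold change of 0.69 ± 0.33 (SE; adjusted p = 0.337) was the largest of the 33 members, with an interval from 0.044 to 1.33. PFKL averaged 25.2 TPM in endotoxin glands and 20.8 TPM in control glands in the authors' deposited table, a smaller change with a smaller error at 0.39 ± 0.14 (SE; adjusted p = 0.123). By unadjusted p, PFKL came next after ENO1 among the members. PFKM averaged 32.4 TPM with endotoxin and 35.5 TPM in controls in the authors' deposited table, at 0.00062 ± 0.13 (SE). The muscle form's interval, from -0.25 to 0.25, is among the narrowest of the members. PFKP thus held 47.6% of summed phosphofructokinase TPM in endotoxin glands and 38.5% in control glands in the authors' deposited table. The share of PFKM was 29.5% in endotoxin glands and 38.8% in control glands, and that of PFKL was 22.9% with endotoxin and 22.7% in controls, in the authors' deposited table. These shares come from group means and carry no error.

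The PFKFB enzymes make and degrade fructose 2,6-bisphosphate, the main activator of phosphofructokinase. PFKFB4 was the most abundant, at 23.5 TPM in endotoxin glands and 25.0 TPM in control glands in the authors' deposited table. It had a log2 fold change of 0.035 ± 0.23 (SE). PFKFB3, the form most biased toward synthesis and known to be induced by HIF and by inflammatory stimuli, averaged 4.74 TPM with endotoxin and 3.93 TPM in controls in the authors' deposited table, at 0.39 ± 0.23 (SE; adjusted p = 0.488). PFKFB2 averaged 5.88 TPM with endotoxin and 6.20 TPM in controls in the authors' deposited table, at 0.051 ± 0.29 (SE). None of the PFKFB genes passed, and the interval of each spanned 0.

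The lower part of glycolysis, from the cleavage of the 6-carbon sugar to pyruvate, held GAPDH, ENO1 and TPI1, the 3 most abundant members. GAPDH, which oxidises glyceraldehyde 3-phosphate, averaged 690 TPM in endotoxin glands and 575 TPM in control glands in the authors' deposited table, at 0.38 ± 0.16 (SE; adjusted p = 0.242). TPI1, the triose phosphate isomerase, averaged 331 TPM in endotoxin glands and 272 TPM in control glands in the authors' deposited table, at 0.39 ± 0.16 (SE; adjusted p = 0.231). PGK1, which makes ATP from 1,3-bisphosphoglycerate, averaged 119 TPM with endotoxin and 103 TPM in controls in the authors' deposited table, at 0.33 ± 0.19 (SE; adjusted p = 0.470). The log2 fold changes of these neighbouring steps lay closer to each other than 1 SE of any of them. ALDOC, the aldolase of brain, differed from them in sign. It averaged 98.9 TPM with endotoxin and 114 TPM in controls in the authors' deposited table, at -0.041 ± 0.26 (SE; adjusted p = 0.974).

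ENO1, the enolase of most tissues, which forms phosphoenolpyruvate, was the member that rose. Its mean was 432 TPM in endotoxin glands and 314 TPM in control glands in the authors' deposited table. The log2 fold change was 0.57 ± 0.17 (SE; interval 0.24 to 0.90; adjusted p = 0.0426) in the authors' deposited table, which corresponds to 1.49-fold (interval 1.18 to 1.87). It stood just inside the threshold: its score was 3.40, beside 3.33 for the weakest row that passed. ENO2, the neuron-specific enolase, which chromaffin cells also express, averaged 15.4 TPM in endotoxin glands and 16.2 TPM in control glands in the authors' deposited table, at 0.071 ± 0.20 (SE; adjusted p = 0.967). ENO1 held 96.0% of enolase TPM in endotoxin glands and 94.2% in control glands, over ENO1, ENO2 and the muscle form ENO3, in the authors' deposited table. PKM, pyruvate kinase, averaged 145 TPM with endotoxin and 139 TPM in controls in the authors' deposited table, at 0.20 ± 0.11 (SE; adjusted p = 0.441). PKM had the smallest SE of all members. GAPDH, ENO1, TPI1, PGK1 and LDHA have processed pseudogene copies in mammals, and how the authors' counting divided reads among such copies is not given in the sources used here.

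**Figure D2:**
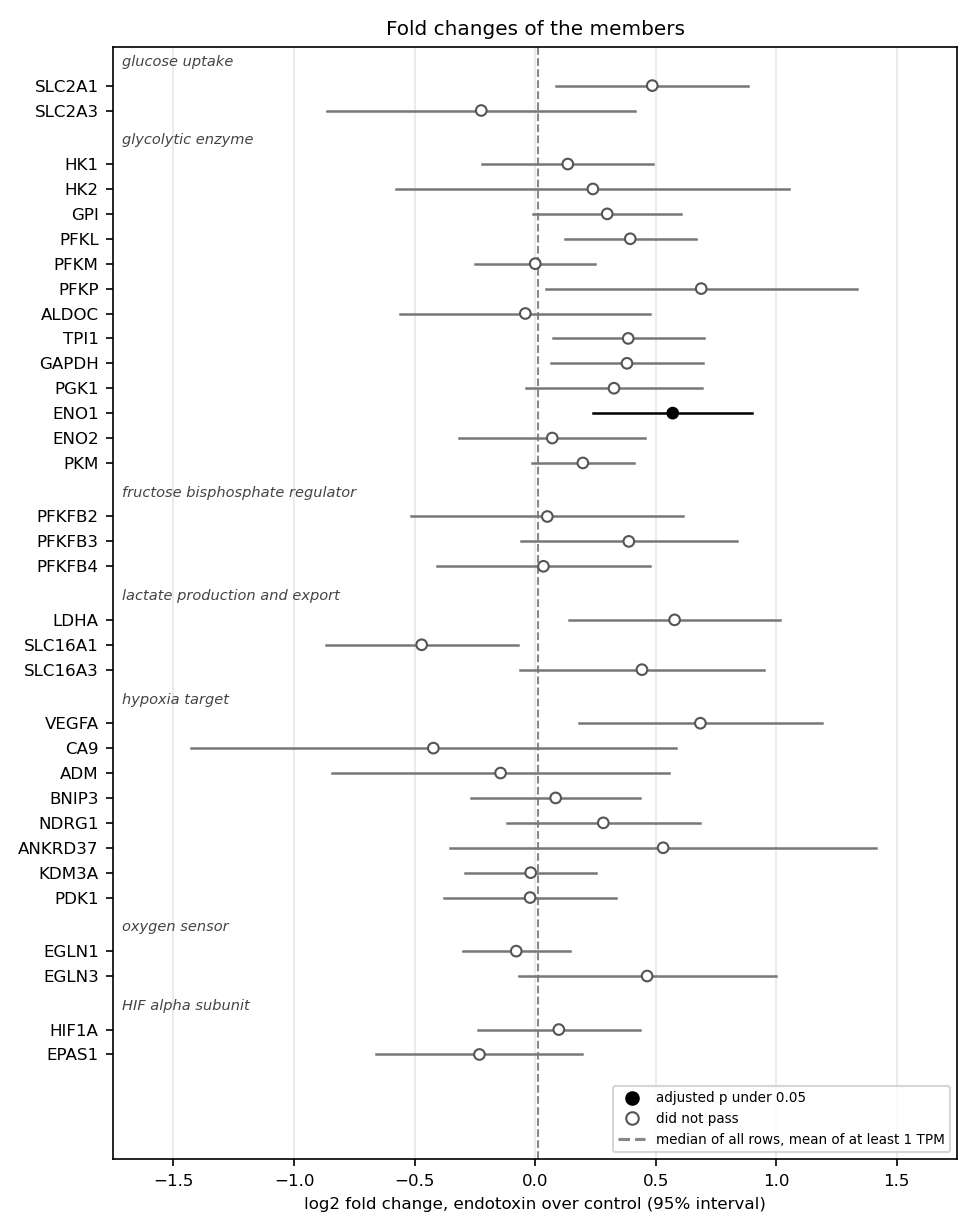
Log2 fold change of each member, endotoxin over control, with its 95% interval, from the authors' deposited table. The filled point is ENO1 (0.57), open points did not pass, and the dashed line is the median over all rows averaging 1 TPM or more (0.011); the glycolytic enzymes lie mostly right of it, while the hypoxia targets lie on both sides.

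Genes of lactate handling lay near the top and at the bottom of the range without passing. LDHA, the subunit of lactate dehydrogenase that favours lactate formation, averaged 50.1 TPM in endotoxin glands and 37.1 TPM in control glands in the authors' deposited table. Its log2 fold change of 0.58 ± 0.22 (SE; adjusted p = 0.185) was as large as that of ENO1, with a larger SE. SLC16A3 (MCT4), the exporter of glycolytic cells, averaged 6.49 TPM with endotoxin and 5.29 TPM in controls in the authors' deposited table, at 0.44 ± 0.26 (SE; adjusted p = 0.485). SLC16A1 (MCT1), which carries lactate and ketone bodies either way across the membrane, averaged 10.01 TPM in endotoxin glands and 15.3 TPM in control glands in the authors' deposited table. At -0.47 ± 0.20 (SE; adjusted p = 0.258) it had the lowest log2 fold change of the 33 members, with an interval from -0.87 to -0.072. SLC16A1 held 60.7% of the summed TPM of these transporters with endotoxin and 74.4% in controls in the authors' deposited table.

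**Figure D3:**
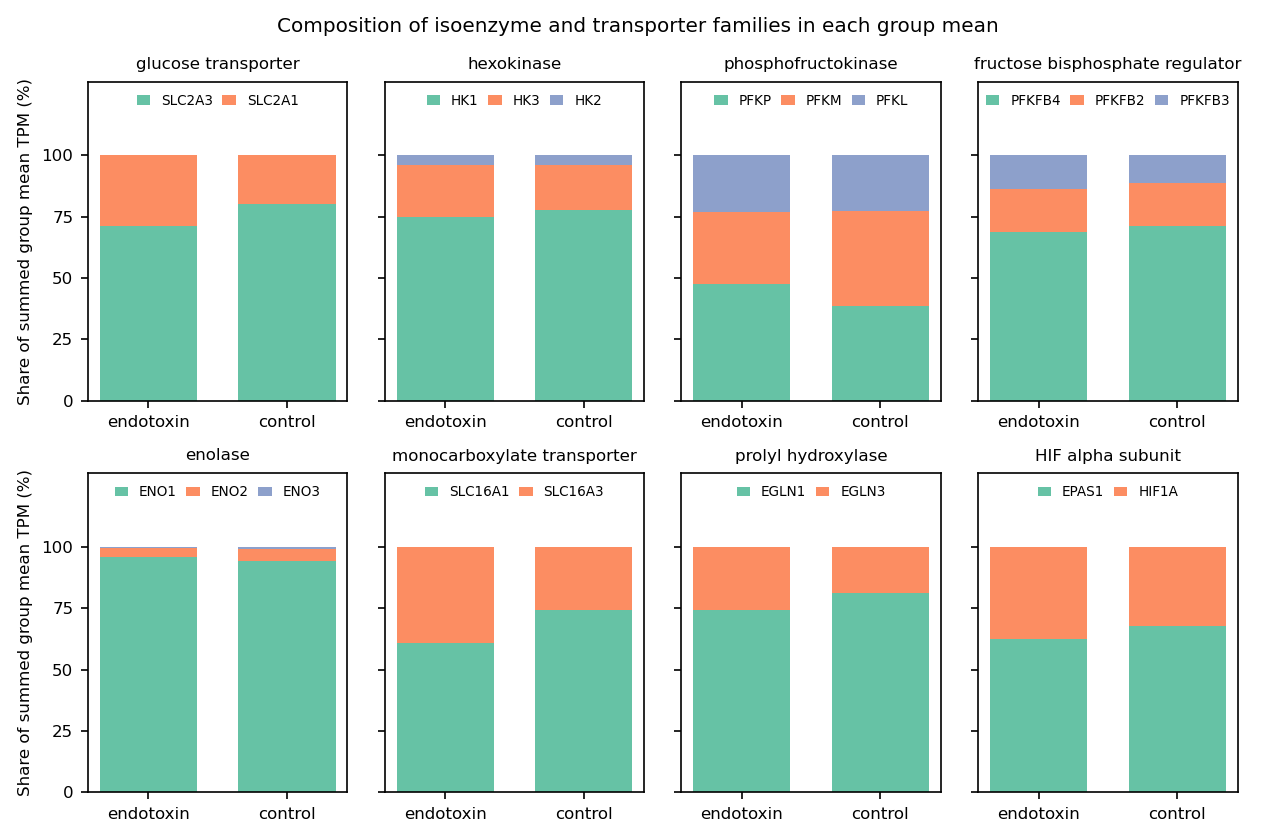
Share of each gene in the summed group mean TPM of its family, with endotoxin on the left and control on the right of each panel, from the authors' deposited table. The shares carry no error because the table has no values per library; among phosphofructokinases PFKP is at 47.6% with endotoxin and 38.5% in controls, and ENO1 makes up nearly all enolase in both.

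Among targets of HIF outside glycolysis, none of 8 passed. VEGFA, the growth factor for vessels, was the fifth most abundant member, at 178 TPM in endotoxin glands and 118 TPM in control glands in the authors' deposited table. Its log2 fold change was 0.69 ± 0.26 (SE; interval 0.18 to 1.19; adjusted p = 0.165), about as large as that of PFKP. ANKRD37, a small ankyrin repeat protein induced by HIF-1, averaged 9.46 TPM with endotoxin and 6.99 TPM in controls in the authors' deposited table. At 0.53 ± 0.45 (SE; adjusted p = 0.721) its error was nearly as large as its change. NDRG1, a stress-induced protein, averaged 19.3 TPM with endotoxin and 17.8 TPM in controls in the authors' deposited table, at 0.28 ± 0.20 (SE; adjusted p = 0.627).

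The other targets lay near or below 0. BNIP3, a receptor for mitophagy, averaged 219 TPM in endotoxin glands and 224 TPM in control glands in the authors' deposited table, at 0.085 ± 0.18 (SE; adjusted p = 0.948). KDM3A, a histone demethylase, averaged 6.96 TPM with endotoxin and 7.78 TPM in controls in the authors' deposited table, at -0.018 ± 0.14 (SE). PDK1, a kinase that restrains pyruvate dehydrogenase, averaged 4.81 TPM with endotoxin and 5.41 TPM in controls in the authors' deposited table, at -0.021 ± 0.18 (SE). The intervals of these 3 genes ran from 0.769-fold at the lowest (PDK1) to 1.35-fold at the highest (BNIP3). ADM, adrenomedullin, a vasodilator peptide found in the adrenal medulla, averaged 46.1 TPM with endotoxin and 56.8 TPM in controls in the authors' deposited table, at -0.14 ± 0.36 (SE; adjusted p = 0.963). CA9, the carbonic anhydrase often used as a marker of HIF-1 activity, was near the lower end of the range, at 0.884 TPM with endotoxin and 1.27 TPM in controls in the authors' deposited table. Its log2 fold change of -0.42 ± 0.51 (SE; adjusted p = 0.858) had the widest interval of the members, from -1.43 to 0.58.

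Oxygen sensors and HIF subunits did not pass either. EGLN1 (PHD2), the main HIF prolyl hydroxylase, averaged 29.6 TPM in endotoxin glands and 34.5 TPM in control glands in the authors' deposited table, at -0.078 ± 0.11 (SE; adjusted p = 0.898). EGLN3 (PHD3), which HIF itself induces, averaged 10.3 TPM with endotoxin and 8.03 TPM in controls in the authors' deposited table, at 0.46 ± 0.27 (SE; adjusted p = 0.486). HIF1A averaged 26.3 TPM with endotoxin and 27.0 TPM in controls in the authors' deposited table, at 0.098 ± 0.17 (SE; adjusted p = 0.930). EPAS1, the HIF-2 alpha subunit, averaged 43.7 TPM with endotoxin and 56.7 TPM in controls in the authors' deposited table, at -0.23 ± 0.22 (SE; adjusted p = 0.770). EPAS1 transcripts outnumbered those of HIF1A in both groups, with 62.4% of their sum in endotoxin glands and 67.8% in control glands in the authors' deposited table. HIF alpha subunits are regulated mainly through protein stability, which RNA levels do not measure.

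Further genes of the same pathways were read from 6 lists beside the members, of which 1 held a gene past the threshold. Among 25 further hypoxia targets 1 rose and none fell, 14 were positive, and the median was 0.013 in the authors' deposited table. The gene that rose was DDIT4, an inhibitor of mTORC1 that glucocorticoids also induce, at 156 TPM with endotoxin and 97.0 TPM in controls, or 0.81 ± 0.20 (SE; adjusted p = 0.00604) in the authors' deposited table.

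In 5 lists no gene passed the threshold in the authors' deposited table. Of 13 other glycolytic isoenzymes, mostly forms of muscle, liver or testis, 4 were positive with a median of -0.20, and HK3 had the smallest p, at 0.43 ± 0.18 (SE; adjusted p = 0.247) in the authors' deposited table. A further 10 glucose transporters had a median of -0.12, with SLC2A6 at 0.96 ± 0.38 (SE; adjusted p = 0.204) in the authors' deposited table. Only 5 of the 10 averaged 1 TPM or more, so that median rests in part on genes near the floor. Of those 5, SLC2A6, SLC2A8 (0.33) and SLC2A10 (0.41) were positive, and SLC2A4 (-0.82) and SLC2A13 (-0.33) were negative. Genes of pyruvate entry into mitochondria had a median of 0.073 over 10 measured, and PDP1, a phosphatase that activates pyruvate dehydrogenase, was at -0.43 ± 0.20 (SE; adjusted p = 0.327) in the authors' deposited table. Glycogen and gluconeogenesis genes had a median of 0.090 over 13 with a p, and GYS1, glycogen synthase, was at 0.35 ± 0.16 (SE; adjusted p = 0.297) in the authors' deposited table. HIF partners and regulators had a median of -0.069 over 9 measured, and ARNT2, a HIF beta subunit, stood in the authors' deposited table at -0.53 ± 0.26 (SE; adjusted p = 0.351).

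**Figure D4:**
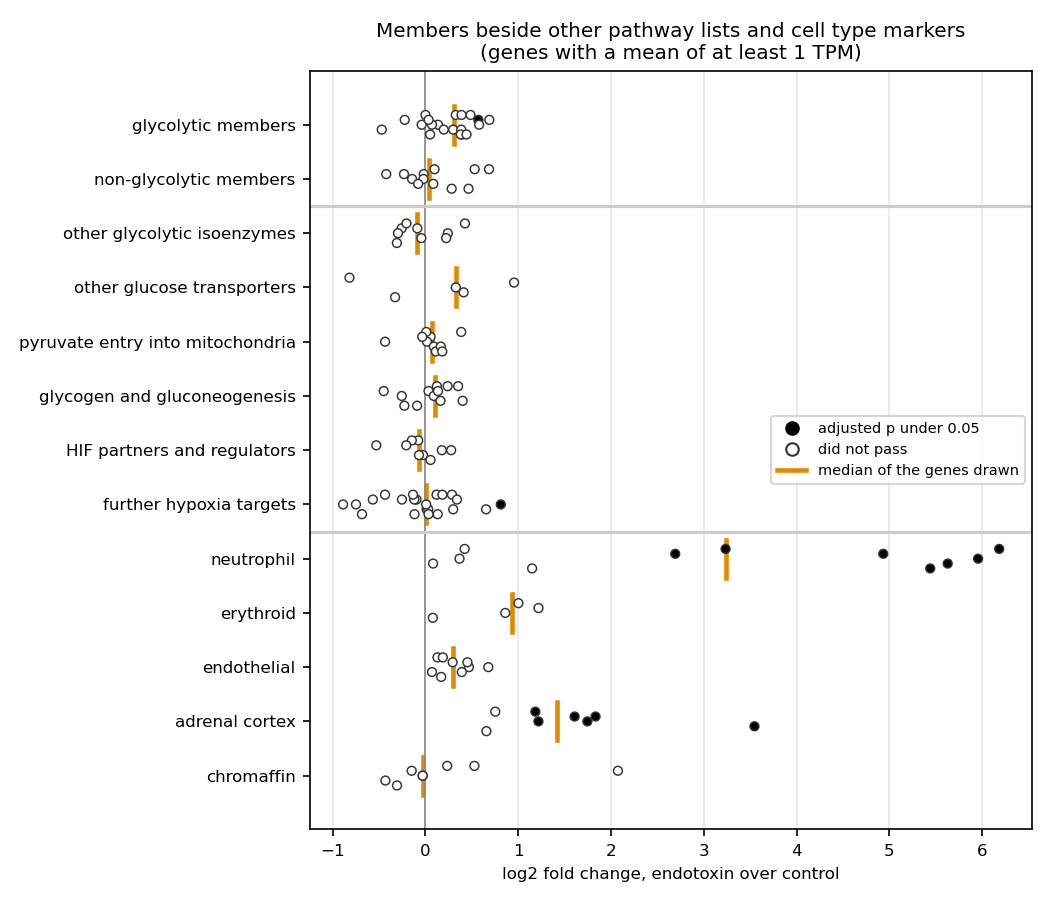
Log2 fold change of single genes with a mean of at least 1 TPM, endotoxin over control, for the members, other lists of glucose and oxygen pathways and cell type markers, from the authors' deposited table. Filled points passed the threshold and bars are medians of the genes drawn. The medians of glycolytic members (0.31) and non-glycolytic members (0.033) are small beside the neutrophil and cortex markers. That of glycolytic members is close to the median of the endothelial markers (0.29).

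The authors' deposited table of enriched pathways lists 95 distinct KEGG categories, and 4 of them name a member among their changed genes, in each case ENO1. Its HIF-1 signalling category held 3 changed genes of 82 (TF, TIMP1 and ENO1), with an unadjusted p of 0.268 in the authors' deposited table and 0.552 after an adjustment made here. Carbon metabolism held 5 of 94 in the authors' deposited table, ENO1 among them, with an unadjusted p of 0.0541 there. Biosynthesis of amino acids held 5 of 57 (unadjusted p = 0.00774) and metabolic pathways 20 of 947 (unadjusted p = 0.609) in the authors' deposited table. Adjusted here by Benjamini-Hochberg over the 95 categories, the p-values were 0.302 for carbon metabolism, 0.123 for biosynthesis of amino acids and 0.761 for metabolic pathways.

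By their median log2 fold change, markers of neutrophils (2.69) and of the cortex (1.61) differed between the groups by more than any member did. Summed over 13 measured neutrophil markers, levels were 1945 TPM in endotoxin glands and 62.5 TPM in control glands in the authors' deposited table, and 7 rose, S100A9, S100A8 and S100A12 with the smallest p. Most of the sum lay in these named genes, at 736, 505 and 658 TPM with endotoxin and 26.1, 7.64 and 11.6 TPM in controls. All 13 were positive, but 6 did not pass, among them CYBB at 0.082 ± 0.31 and MMP9 at 0.37 ± 0.27 (SE). MMP8, which also did not pass, was listed at 0 in controls and at 0.0058 TPM with endotoxin (0.64 ± 3.16, SE; adjusted p = 0.972). Over 9 measured cortex markers the sums were 6766 TPM with endotoxin and 2679 TPM in controls in the authors' deposited table, and 7 rose, with CYP11A1, CYP17A1 and SCARB1 first by p. Over 7 erythroid markers they were 54.6 TPM with endotoxin and 33.3 TPM in controls in the authors' deposited table, and 1 rose, HBM. HBM was at a low level, 1.13 TPM with endotoxin and 0.445 TPM in controls. Most of the sum was AHSP, at 37.2 TPM with endotoxin and 21.3 TPM in controls, which did not pass (adjusted p = 0.370). None of 9 endothelial markers passed, with sums of 198 TPM with endotoxin and 177 TPM in controls and VWF first by p, at 0.68 ± 0.28 (SE; adjusted p = 0.235) in the authors' deposited table. All 9 were positive, with a median of 0.29, close to that of the glycolytic members (0.30). None of 8 chromaffin markers passed, with sums of 8917 TPM with endotoxin and 9477 TPM in controls in the authors' deposited table. Of these 8, 3 were positive and 5 negative, with a median of -0.029. PNMT was first by p, at 2.07 ± 0.73 (SE; adjusted p = 0.123). The sums include PNMT, at 1306.5 TPM with endotoxin and 329.5 TPM in controls, which ran against the direction of the sums. A change in the number of cells of a type and a change in RNA per cell cannot be told apart in whole glands. The part of neutrophils, red cells or the cortex in the levels of ENO1 and the other members was not tested.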

How the data were processed

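Libraries were made from total RNA with a directional kit, per the labels' protocols. Salmon 0.9.1, fastp 0.19.4, DESeq2 and the build Oar_v3.1 are named, without roles, per the submitters' processing notes. The authors deposited estimated counts and TPM per library for 20781 gene IDs without symbols. These served for totals per library and for the direction of the groups.

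The authors' deposited table of differential expression gives, per the file headers, p-values with and without adjustment, group means, a log2 column, an SE and a score. Each group column sums to 1000000, so the means were read as TPM. The deposited log2 column equals the log2 ratio of group means plus 1 TPM. A two-sided normal p of the deposited score gives the deposited p-value, so the score was read as fold change over SE and the printed log2 fold changes are their product. In 80 rows p and adjusted p are 1, and these were treated as having none. The deposited pathway table gives whole-number gene counts and p-values, per the file headers.

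Members and lists were chosen with earlier results of these data known. Named from other lists were up to 3 genes past the threshold, or the smallest p. Benjamini-Hochberg adjustments, tested on simulated data, used Python 3.11.15, numpy 2.4.6 and pandas 2.3.3. No sequence is shown, and 1 further list is not reported here.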

Additional observations from a re-analysis of the deposited data

How the results depend on the processing

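The count of members past the threshold stayed at 1 higher and 0 lower when p-values were adjusted over rows averaging 1 TPM or more, over 1 row per symbol, or read at an adjusted p under 0.1. At an adjusted p under 0.01 the count of higher members was 0, and at an unadjusted p under 0.05 it was 8, with 1 lower. The median of glycolytic members lay between 0.13 and 0.31 under all alternatives run. The median of non-glycolytic members was -0.088, -0.096 and -0.060 on the TPM scale with pseudocounts of 1, 0.1 and 5, against 0.033 on the scale of the authors' model. On the TPM scale with a pseudocount of 1, 6 members changed sign in the authors' deposited table: PFKM at -0.13, PFKFB2 at -0.066, PFKFB4 at -0.085, ENO2 at -0.068, BNIP3 at -0.034 and HIF1A at -0.033. That scale sits lower by 0.11 for the median of rows averaging 1 TPM or more, at -0.10. Relative to it 23 of 33 members were positive, 17 of 21 glycolytic and 6 of 12 non-glycolytic, beside 24 on the scale of the model and 18 on the TPM scale as deposited. Less the model's own median, PFKM was at -0.011. No member has a further row to try.

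No paired analysis was possible because the members' values are group means without replicate numbers, and for the same reason no library was left out. HK2 and CA9, near 1 TPM, were among the members with the largest SE.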
